A study of Mus musculus with 11 samples.

Results

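Gpnmb and 9 other genes linked to macrophages loaded with dead cells or lipid were examined in mouse fetal livers of 4 genotypes. The other 9 were Trem2, Spp1, Cd9, Lgals3, Fabp5, Lpl, Cd68, Ctsb and Ctsd. All 10 were chosen by symbol, as genes of lipid-associated macrophages, with earlier results of these data known. They are 10 of the 52636 genes listed in the count tables. Gpnmb was more abundant in every Casp8-/- Tnfr1-/- liver than in any control liver, with 46.4 to 108 CPM (read counts scaled to a common library size) against 0.788 to 3.25 CPM. Lgals3 rose against each control genotype too. Spp1 and Cd68 lay above all 8 controls and passed the test against WT, and Trem2 passed against Casp8-/- Mlkl-/-, with no test of whether these differences differ between control genotypes. The remaining 5 genes, among them the lysosomal proteases Ctsb and Ctsd, passed the test in no comparison.

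Bulk RNA was sequenced from whole livers of untreated E15.5 embryos. The groups were 3 WT livers, 2 livers lacking the TNF receptor TNFR1 (Tnfr1-/-), 3 lacking caspase-8 and the necroptosis effector MLKL (Casp8-/- Mlkl-/-), and 3 lacking caspase-8 and TNFR1 (Casp8-/- Tnfr1-/-). The alleles were germline, so every cell of the embryo carried them, on a C57BL/6N background. Caspase-8 restrains necroptosis, a lytic form of cell death, and the series asks what changes when caspase-8 and TNFR1 are lost together, with the other 3 genotypes as controls.

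Macrophages of the fetal liver clear dying cells and the nuclei that maturing red cells expel. The receptor TREM2 binds lipids and lipoproteins and signals through the adaptor TYROBP, and macrophages that digest much lipid or debris raise a shared set of genes: the glycoprotein GPNMB and the secreted protein SPP1 (osteopontin), the lectin LGALS3 (galectin-3), the tetraspanin CD9, the lipid handling proteins FABP5 and LPL, and the lysosomal proteins CD68, cathepsin B and cathepsin D. Transcription factors of the MiT/TFE family, which include TFEB, TFE3, MITF and TFEC, drive lysosomal genes and Gpnmb. None of these genes is specific to macrophages: fetal hepatocytes and other cells express several of them, and in a whole liver fewer cells of a type and less RNA per cell cannot be told apart.

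A pair of livers stood apart from the rest. Casp8-/- Tnfr1-/- replicate 3 reached a correlation of at most 0.891 with any other liver and Casp8-/- Mlkl-/- replicate 1 of at most 0.962, whereas each of the other 9 livers reached 0.988 to 0.993. In Casp8-/- Tnfr1-/- replicate 3 the summed level of 8 striated muscle genes was 1605 CPM against at most 36.1 elsewhere. That of 7 mesenchymal and stellate cell genes was 4146 CPM against at most 921. This liver also differed in sex: Xist stood at 3407 CPM against at most 0.569. Genes of the Y chromosome held 109 counts in it and 4161 to 7976 in each other liver. It thus read as female and the others as male, and sex was not a factor in the fits. In Casp8-/- Mlkl-/- replicate 1 the 8 hepatocyte genes summed to 233819 CPM, against 111049 CPM in Casp8-/- Tnfr1-/- replicate 3 and 51585 to 78722 CPM in the other 9. Results are therefore given with and without these livers. Casp8 was at 27.7 to 33.8 CPM in the 5 livers with intact Casp8 and at 7.82 to 10.2 CPM in Casp8-/- Mlkl-/-. In Casp8-/- Tnfr1-/- livers it was at 13.1, 11.5 and 21.9 CPM, the last in the replicate 3 that stood apart. Mlkl was at 0.729 to 1.22 CPM in Casp8-/- Mlkl-/- livers and at 3.68 CPM or more elsewhere. Tnfrsf1a, which encodes TNFR1, was at 49.8 and 50.5 CPM in Tnfr1-/- livers and 47.1 to 53.4 CPM in WT, and at 76.9, 75.9 and 425 CPM in Casp8-/- Tnfr1-/- livers, the last in the replicate 3 that stood apart. Its counts over the whole gene thus did not check the Tnfr1 label in either genotype. Hepatocyte and erythroid markers were abundant in all 11 livers, as in fetal liver.

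Promoters from 250 bases before to 50 after the start of transcription are shown for the 4 genes that lay above all 8 control livers in every Casp8-/- Tnfr1-/- liver, and for Ctsd, the only promoter of the group with the E-box letters CACGTG that MiT/TFE factors bind. RefSeq sequences on GRCm38.p6 were at hand for 7 of the 10 genes, with a pair of promoters for Spp1, of which the upstream one is shown. The RefSeq starts of Lgals3 and Ctsd lie inside the spans that the GENCODE annotation gives the genes. Those of Gpnmb, Spp1 and Cd68 lie upstream of these spans. Positions of matches are counted from the RefSeq start. Capitals mark matches on either strand to CACGTG, to the AP-1 letters TGANTCA and to the PU.1 core GAGGAA, which reads as its complement where it lies on the other strand.
Gpnmb, chr6:49036268-49036567, plus strand: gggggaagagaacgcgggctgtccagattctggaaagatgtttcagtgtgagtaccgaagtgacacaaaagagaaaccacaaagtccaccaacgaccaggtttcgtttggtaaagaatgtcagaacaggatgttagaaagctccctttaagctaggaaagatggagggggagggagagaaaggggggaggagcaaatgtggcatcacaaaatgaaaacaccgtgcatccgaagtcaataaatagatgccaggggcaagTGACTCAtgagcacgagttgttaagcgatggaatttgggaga
Spp1, chr5:104434861-104435160, plus strand: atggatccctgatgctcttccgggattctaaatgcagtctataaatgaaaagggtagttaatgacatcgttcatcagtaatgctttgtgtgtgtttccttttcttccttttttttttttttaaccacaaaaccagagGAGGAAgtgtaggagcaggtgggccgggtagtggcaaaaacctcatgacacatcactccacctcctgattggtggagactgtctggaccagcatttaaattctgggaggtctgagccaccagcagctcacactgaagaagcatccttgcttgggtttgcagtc
Lgals3, chr14:47373610-47373909, plus strand: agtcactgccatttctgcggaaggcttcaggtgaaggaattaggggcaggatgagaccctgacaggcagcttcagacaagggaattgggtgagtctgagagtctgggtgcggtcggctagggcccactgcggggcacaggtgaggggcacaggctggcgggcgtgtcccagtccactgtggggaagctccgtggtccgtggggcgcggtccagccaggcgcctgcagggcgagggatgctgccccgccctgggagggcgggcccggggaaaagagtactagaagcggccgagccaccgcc
Cd68, chr11:69666121-69666420, minus strand: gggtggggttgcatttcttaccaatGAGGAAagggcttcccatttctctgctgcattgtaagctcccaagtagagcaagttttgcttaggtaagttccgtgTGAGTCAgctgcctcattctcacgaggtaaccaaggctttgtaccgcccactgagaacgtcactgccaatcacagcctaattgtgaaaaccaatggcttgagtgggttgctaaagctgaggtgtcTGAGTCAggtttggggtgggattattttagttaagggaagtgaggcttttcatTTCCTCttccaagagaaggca
Ctsd, chr7:142387778-142388077, minus strand: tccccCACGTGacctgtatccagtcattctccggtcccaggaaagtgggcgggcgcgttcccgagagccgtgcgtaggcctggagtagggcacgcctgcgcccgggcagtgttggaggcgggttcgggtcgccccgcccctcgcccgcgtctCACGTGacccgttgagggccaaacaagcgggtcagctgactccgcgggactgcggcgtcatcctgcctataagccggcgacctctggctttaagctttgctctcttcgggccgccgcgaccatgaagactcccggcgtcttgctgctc
The Gpnmb promoter held TGACTCA with its first base at position 9 of the RefSeq transcript, upstream of the GENCODE start, and no E-box. Ctsd held its E-boxes 245 and 98 bases before the start. Cd68 held AP-1 letters 149 and 24 bases before the start, and Trem2, which is not shown, TGAATCA 9 bases before it. PU.1 letters were in the promoters of Cd68, Spp1 and Trem2, and the Lgals3 window held no match to any of the 3 motifs. Among 32851 promoters of the same length, 7.15% held CACGTG, 7.81% TGANTCA and 28.3% GAGGAA. None of the matches was tested as a binding site.

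Gpnmb, which lies at chr6:49036546-49070929 on the plus strand of GRCm38 and encodes a transmembrane glycoprotein of endosomes and phagosomes, was the member with the largest change. Its level was 1.69, 1.55 and 0.788 CPM in the WT livers, 1.37 and 1.25 CPM in Tnfr1-/-, 2.67, 1.86 and 3.25 CPM in Casp8-/- Mlkl-/-, and 79.2, 108 and 46.4 CPM in Casp8-/- Tnfr1-/-. The lowest Casp8-/- Tnfr1-/- liver, replicate 3, was thus above the highest control, Casp8-/- Mlkl-/- replicate 3, and no group of controls overlapped it. These levels rest on 20 to 85 reads per control liver and on 814 to 3143 reads per Casp8-/- Tnfr1-/- liver. Gpnmb rose 57.9-fold against WT (log2 fold change 5.85, SE 0.42, edgeR adjusted p = 8.48e-05), 59.2-fold against Tnfr1-/- (5.89, SE 0.51, adjusted p = 0.000371) and 30.1-fold against Casp8-/- Mlkl-/- (4.91, SE 0.40, adjusted p = 0.000446). Each of these calls held when any of the 11 livers was left out, with log2 fold changes of 5.56 to 6.13 against WT, 5.59 to 6.15 against Tnfr1-/- and 4.62 to 5.19 against Casp8-/- Mlkl-/-. All 3 comparisons use the same Casp8-/- Tnfr1-/- libraries, so they do not count as separate evidence.

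**Figure D1:**
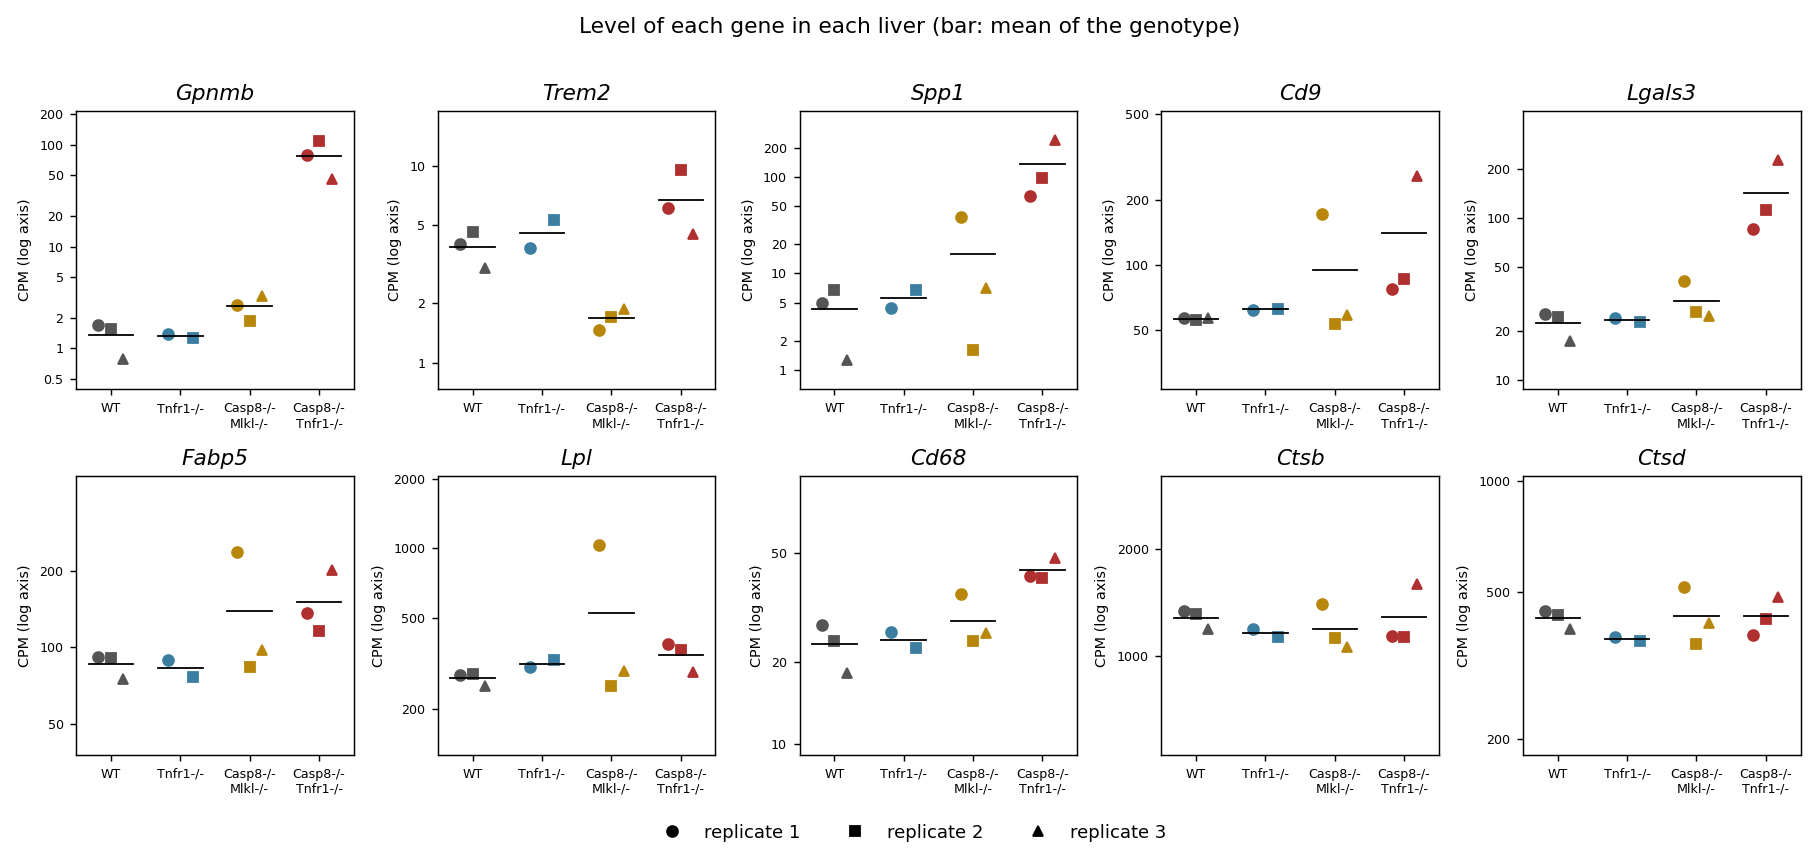
Level of each of the 10 genes in each of the 11 livers, in CPM on a log axis, by genotype. Symbols give the replicate number and bars the mean of the genotype. In the panels of Gpnmb, Spp1, Lgals3 and Cd68 all Casp8-/- Tnfr1-/- livers lie above all controls, and in those of Cd9, Fabp5 and Lpl the highest control is Casp8-/- Mlkl-/- replicate 1.

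Spp1, a secreted phosphoprotein of bone, bile duct cells and activated macrophages (chr5:104435118-104441050, plus strand), varied widely between livers of the same genotype. It was at 4.91, 6.79 and 1.26 CPM in WT, 4.40 and 6.72 CPM in Tnfr1-/-, 38.6, 1.60 and 7.10 CPM in Casp8-/- Mlkl-/-, and 62.6, 98.3 and 242 CPM in Casp8-/- Tnfr1-/- livers. The groups did not overlap, but the highest Casp8-/- Tnfr1-/- liver and the highest control were the livers that stood apart. Spp1 rose 31.1-fold against WT (log2 fold change 4.96, SE 1.13, edgeR adjusted p = 0.0331). The fold against WT was 18.7 without Casp8-/- Tnfr1-/- replicate 3, and the call was lost when any of the 3 WT or 2 Tnfr1-/- livers was left out (adjusted p 0.0613 to 0.139). Its differences of 4.60 from Tnfr1-/- (adjusted p = 0.123) and 3.09 from Casp8-/- Mlkl-/- (adjusted p = 0.200) did not pass. Without Casp8-/- Mlkl-/- replicate 1 both passed, at 4.59 (adjusted p = 0.0366) and 4.96 (adjusted p = 0.0358). Spp1 shares 18.8% of its exon bases with Gm42793 on the same strand, where reads cannot be told apart. Biliary epithelium, which expresses Spp1, was marked by 5 genes that summed to 86.2 CPM in Casp8-/- Tnfr1-/- replicate 3, 43.3 CPM in Casp8-/- Mlkl-/- replicate 1 and 16.1 to 22.6 CPM elsewhere. In Casp8-/- Tnfr1-/- replicates 1 and 2, with Spp1 at 62.6 and 98.3 CPM, the sums were 22.6 and 20.4 CPM. The part of these cells in the Spp1 level was not tested.

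Lgals3 encodes galectin-3, a lectin that binds damaged endosomes and lysosomes (chr14:47367751-47386160, plus strand). Its level was 25.7, 24.3 and 17.5 CPM in WT, 24.0 and 22.7 CPM in Tnfr1-/-, 40.9, 26.4 and 24.9 CPM in Casp8-/- Mlkl-/-, and 85.6, 112 and 228 CPM in Casp8-/- Tnfr1-/-. All Casp8-/- Tnfr1-/- livers were at more than 85 CPM and no control above 41 CPM. Lgals3 rose 6.29-fold against WT (log2 fold change 2.65, SE 0.36, edgeR adjusted p = 0.00333), 6.07-fold against Tnfr1-/- (2.60, adjusted p = 0.0142) and 4.61-fold against Casp8-/- Mlkl-/- (2.21, adjusted p = 0.0165). Against WT it held its call in every fit without 1 liver. Against Tnfr1-/- it was lost when either Tnfr1-/- liver was left out (adjusted p 0.225 and 0.238), and against Casp8-/- Mlkl-/- when replicate 2 or 3 of that genotype was left out (0.0956 and 0.0979). Without Casp8-/- Tnfr1-/- replicate 3 the log2 fold changes were 2.14, 2.08 and 1.69, and all 3 passed.

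Trem2, the lipid receptor (chr17:48346401-48354147, plus strand), passed the test against Casp8-/- Mlkl-/- livers only. Whether its differences differ between control genotypes was not tested. It was at 3.99, 4.61 and 3.04 CPM in WT, 3.83 and 5.31 CPM in Tnfr1-/-, 1.46, 1.71 and 1.87 CPM in Casp8-/- Mlkl-/-, and 6.13, 9.56 and 4.50 CPM in Casp8-/- Tnfr1-/-. The 3 Casp8-/- Mlkl-/- livers were the lowest of all 11, below every WT liver, while the lowest Casp8-/- Tnfr1-/- liver fell within the range of WT and Tnfr1-/-. Trem2 was 4.0-fold higher in Casp8-/- Tnfr1-/- than in Casp8-/- Mlkl-/- livers (log2 fold change 2.0, SE 0.32, edgeR adjusted p = 0.0156), a call lost without Casp8-/- Mlkl-/- replicate 2 or 3 (adjusted p = 0.0836 and 0.0728). Against WT the log2 fold change was 0.80 (adjusted p = 0.149) and against Tnfr1-/- 0.56 (adjusted p = 0.447). Of the fits without 1 liver, it passed against WT in that without Casp8-/- Tnfr1-/- replicate 3, at 1.02 (adjusted p = 0.0376). Without both livers that stood apart, chosen after seeing the data, it passed against WT, Tnfr1-/- and Casp8-/- Mlkl-/- (1.03, 0.80 and 2.14). Between the control genotypes, Trem2 in Casp8-/- Mlkl-/- livers differed from WT by -1.20, which had an unadjusted p of 0.00344 and an adjusted p of 0.687. Counts of Trem2 were low, from 36 to 278 reads per liver.

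Cd9, a membrane tetraspanin that many cells carry (chr6:125460266-125494791, minus strand), was at 57.0, 55.5 and 56.7 CPM in WT, 62.2 and 62.9 CPM in Tnfr1-/-, 172, 53.1 and 58.9 CPM in Casp8-/- Mlkl-/-, and 77.4, 86.4 and 259 CPM in Casp8-/- Tnfr1-/-. The livers that stood apart held the extreme values of their genotypes, and with Casp8-/- Mlkl-/- replicate 1 the groups overlapped. The log2 fold changes of 1.32, 1.17 and 0.57 against WT, Tnfr1-/- and Casp8-/- Mlkl-/- did not pass (edgeR adjusted p = 0.163, 0.375 and 0.609). The last became -0.20 without Casp8-/- Tnfr1-/- replicate 3 and 1.33 without Casp8-/- Mlkl-/- replicate 1, neither of which passed. Without both livers, chosen after seeing the data, the changes were 0.55, 0.41 and 0.56 and passed (adjusted p = 3.48e-05, 0.00141 and 0.00013). Of the Cd9 exon bases, 10.7% lie opposite Gm26728, whose reads cannot be told from those of Cd9 if strand was not used.

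Lipid handling was represented by Fabp5, a chaperone of fatty acids (chr3:10012548-10016607, plus strand), and Lpl, a lipase that releases fatty acids from triglycerides (chr8:68880491-68907448, plus strand). Fabp5 was at 91.4, 91.0 and 75.4 CPM in WT, 89.1 and 76.5 CPM in Tnfr1-/-, 237, 83.6 and 98.0 CPM in Casp8-/- Mlkl-/-, and 136, 116 and 202 CPM in Casp8-/- Tnfr1-/-. Each Casp8-/- Tnfr1-/- liver exceeded 7 of the 8 controls, all but Casp8-/- Mlkl-/- replicate 1. Its log2 fold changes of 0.82, 0.87 and 0.12 did not pass (adjusted p = 0.203, 0.340 and 0.877), but the one against WT did without Casp8-/- Mlkl-/- replicate 1 (0.82, adjusted p = 0.0418). Lpl was at 280, 284 and 252 CPM in WT, 303 and 326 CPM in Tnfr1-/-, 1033, 253 and 292 CPM in Casp8-/- Mlkl-/-, and 385, 361 and 288 CPM in Casp8-/- Tnfr1-/-. Its range over Casp8-/- Tnfr1-/- livers lay within that of the controls, and its log2 fold changes of 0.34, 0.13 and -0.61 did not pass (adjusted p = 0.639, 0.901 and 0.534). In Casp8-/- Mlkl-/- replicate 1, where Lpl was highest, the hepatocyte genes were highest too, and their part in Lpl was not tested. The adipocyte genes Adipoq, Plin1 and Cidec were under 1 CPM in every liver. Fabp5 shares 5.48% of its exonic 50-base stretches with 5 other genes, so reads on copies of it may have been dropped as not unique.

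The lysosomal members did not move alike. Cd68, a lysosomal membrane glycoprotein of macrophages (chr11:69664213-69666153, minus strand), was at 27.3, 23.9 and 18.3 CPM in WT, 25.6 and 22.4 CPM in Tnfr1-/-, 35.3, 23.8 and 25.4 CPM in Casp8-/- Mlkl-/-, and 41.2, 40.6 and 47.8 CPM in Casp8-/- Tnfr1-/-. The groups did not overlap, with Casp8-/- Mlkl-/- replicate 1 the highest control. Cd68 rose 1.87-fold against WT (log2 fold change 0.90, SE 0.20, edgeR adjusted p = 0.0293), and the call was lost when any of the 3 WT or 2 Tnfr1-/- livers was left out (adjusted p 0.0546 to 0.129). The differences of 0.85 from Tnfr1-/- and 0.62 from Casp8-/- Mlkl-/- did not pass (adjusted p = 0.1003 and 0.184). The former passed without Casp8-/- Mlkl-/- replicate 1 (0.84, adjusted p = 0.0394).

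Ctsb and Ctsd encode the lysosomal proteases cathepsin B (chr14:63122462-63145923, plus strand) and cathepsin D (chr7:142375911-142388038, minus strand). Ctsb was at 1344, 1317 and 1192 CPM in WT, 1196 and 1131 CPM in Tnfr1-/-, 1403, 1129 and 1060 CPM in Casp8-/- Mlkl-/-, and 1139, 1132 and 1601 CPM in Casp8-/- Tnfr1-/-. Ctsd was at 445, 434 and 396 CPM in WT, 378 and 367 CPM in Tnfr1-/-, 515, 362 and 412 CPM in Casp8-/- Mlkl-/-, and 383, 422 and 483 CPM in Casp8-/- Tnfr1-/-. For both genes the groups overlapped and the livers that stood apart were the highest of their genotypes. Ctsb and Ctsd differed from WT by 0.01 and 0.01 on the log2 scale (SE 0.19 and 0.17), 0.15 and 0.20 against Tnfr1-/- (SE 0.22 and 0.19), and 0.11 and -0.00 against Casp8-/- Mlkl-/- (SE 0.19 and 0.17), with adjusted p of at least 0.599. Ctsd shares 34.4% of its exon bases with Gm49369 on the same strand and Ctsb 12.8% with Fdft1 on the other strand.

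Counted over the group, 4 of the 10 members (Gpnmb, Spp1, Lgals3 and Cd68) rose in Casp8-/- Tnfr1-/- livers against WT and 0 lower, where 5.1% of the 17243 genes tested were higher and 0.702% lower. Against Tnfr1-/-, 2 were higher (Gpnmb and Lgals3) and 0 lower, where 2.05% of all genes were higher and 0.122% lower. Against Casp8-/- Mlkl-/-, 3 were higher (Gpnmb, Lgals3 and Trem2) and 0 lower, where 1.54% were higher and 0.116% lower. The median log2 fold change of the 10 members was 0.86, 0.86 and 0.60 in these comparisons, beside -0.00, -0.01 and -0.03 over all genes. At an unadjusted edgeR p under 0.05 there were 6, 4 and 5 members, beside 4238, 2819 and 2644 of the 17243 genes tested. In every Casp8-/- Tnfr1-/- liver 4 of the 10 members lay above all 8 controls and 0 below, where 7.43% of all genes lay above and 3.32% below. The p-values measure the spread between these livers, and the members were picked with results of these data known.

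**Figure D2:**
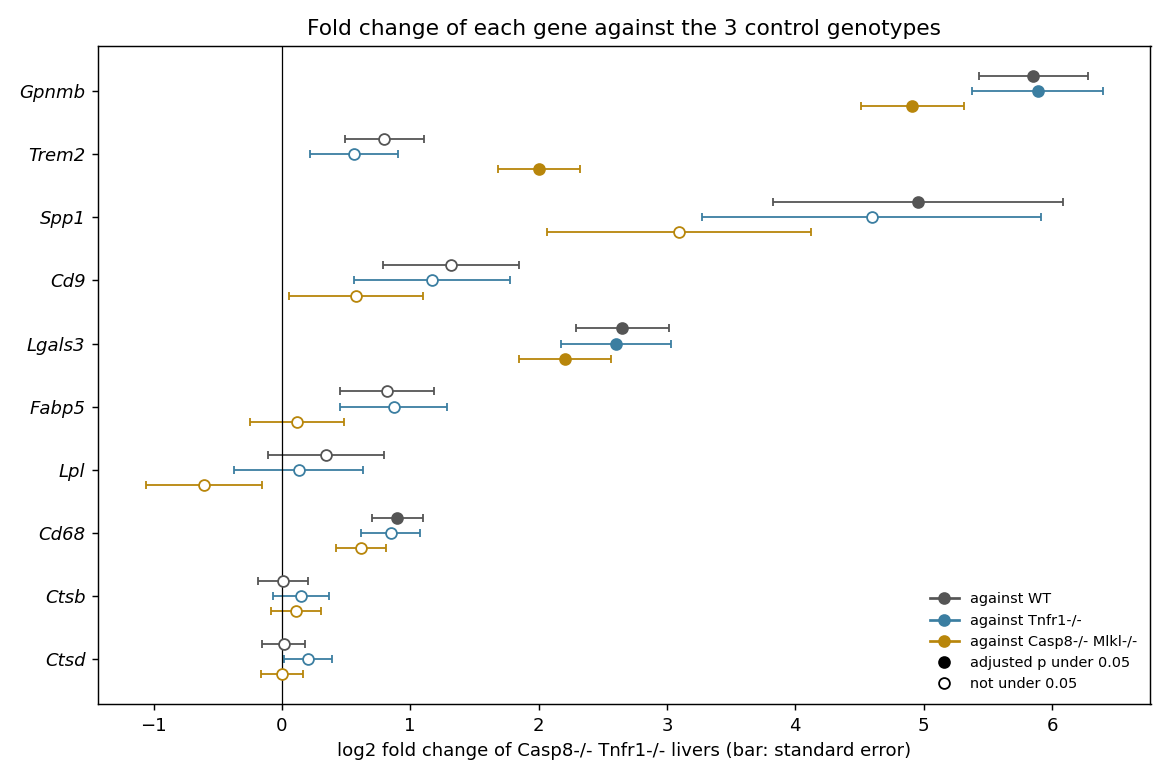
Log2 fold change of each gene in Casp8-/- Tnfr1-/- livers against WT, Tnfr1-/- and Casp8-/- Mlkl-/- livers, with its standard error as a bar. Filled points have an edgeR adjusted p under 0.05. Gpnmb at 5.85, 5.89 and 4.91 lies farthest to the right, and Ctsb and Ctsd lie between -0.00 and 0.20.

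Between the control genotypes, edgeR called 0 members higher or lower in Casp8-/- Mlkl-/- than in WT livers, where 0.0058% of all genes were higher and 0% lower. The unadjusted p was under 0.05 for 2 of them, Trem2 and Gpnmb, the latter with a log2 fold change of 0.94 (adjusted p = 0.875). Of the 17243 genes tested, 971 had such an unadjusted edgeR p. Over all genes DESeq2 called 90 in this comparison and limma-voom 1. In Tnfr1-/- against WT livers edgeR called 0 members, with 0% of all genes higher and 0% lower. None of the 10 members had an unadjusted p under 0.05 there, where 186 of the 17243 genes tested did. The log2 fold changes of the members ran from -0.19 to 0.36, with 0 genes called by DESeq2 and by limma-voom.

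The count of members depended on the livers that stood apart. Without Casp8-/- Mlkl-/- replicate 1, 5, 4 and 4 members were higher against WT, Tnfr1-/- and Casp8-/- Mlkl-/-, where 7.29%, 3.62% and 3.03% of genes were. Without Casp8-/- Tnfr1-/- replicate 3 the counts were 5, 2 and 3, where 7.28%, 4.46% and 2.83% of genes were higher. Without both livers, an alternative chosen after seeing the data, 8 members were higher in each comparison, all but Ctsb and Ctsd. The calls over all genes grew alongside, to 17.8%, 13.9% and 12.0% higher, and Lpl against Casp8-/- Mlkl-/- changed from -0.61 to 0.47 (adjusted p = 0.00161). Trem2 was then lower in Casp8-/- Mlkl-/- than in WT livers (-1.11, adjusted p = 0.0247), where 3.18% of all genes were lower.

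Levels of different genes were compared per kilobase of the deposited gene length. In WT livers Ctsb was the most abundant at 271 ± 17.0 CPM per kilobase (SD, n = 3), followed by Ctsd at 200 ± 12.1, Fabp5 at 87.1 ± 9.24, Lpl at 66.1 ± 4.19 and Cd9 at 45.9 ± 0.68. Cd68 at 18.4 ± 3.62 and Lgals3 at 14.2 ± 2.75 overlapped, as did Trem2 at 3.39 ± 0.69 and Spp1 at 2.62 ± 1.70, and Gpnmb was last at 0.297 ± 0.107. Tnfr1-/- livers kept this order and Casp8-/- Mlkl-/- livers did so except that Spp1 came before Trem2. In Casp8-/- Tnfr1-/- livers Ctsb stayed first at 272 ± 56.7 CPM per kilobase. Ctsd at 202 ± 23.8, Fabp5 at 153 ± 45.8, Cd9 at 115 ± 83.1, Lgals3 at 89.2 ± 47.5, Lpl at 83.8 ± 12.2, Spp1 at 81.4 ± 57.6 and Cd68 at 34.4 ± 3.16 followed, each overlapping with the next. Gpnmb reached 17.3 ± 6.85 CPM per kilobase and stood 9th, above Trem2 at 5.89 ± 2.26.

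To set the members against the macrophage content of each liver, their log2 CPM was taken relative to the mean log2 CPM of 8 pan-macrophage genes, among them Adgre1, Csf1r and Spi1, in 3 Casp8-/- Tnfr1-/- livers against the 8 controls. Gpnmb was 51.0-fold higher on this scale (log2 difference 5.67, exact two-sided permutation p = 0.0121, the smallest that 165 splits can give). It ranged from 0.83 to 1.49 in Casp8-/- Tnfr1-/- livers and from -5.10 to -3.74 in controls. Spp1 (4.69), Lgals3 (2.63), Cd9 (1.12), Cd68 (1.06) and Fabp5 (0.86) also did not overlap with the controls, with the same exact permutation p of 0.0121. Cd9 and Fabp5 did overlap with the controls in CPM. These p-values were not adjusted, and the share of all genes that would pass on this scale was not computed. As the members were picked with results of these data known, the p-values add no separate support. Without Casp8-/- Tnfr1-/- replicate 3 the differences of Spp1 and Cd9 were 3.96 and 0.38. Trem2 was 1.38 higher with an exact permutation p of 0.0242. It ranged from -2.65 to -2.00 in Casp8-/- Tnfr1-/- livers, from -3.25 to -2.63 in WT and Tnfr1-/- and from -5.94 to -4.51 in Casp8-/- Mlkl-/-, so the controls were not alike and the lowest of them were the Casp8-/- Mlkl-/- livers. The p became 0.0889 without Casp8-/- Tnfr1-/- replicate 2 and also without replicate 3. The differences of 0.31 for Lpl, 0.33 for Ctsb and 0.32 for Ctsd had exact permutation p of 0.097, 0.388 and 0.303, and that for Lpl was 0.0333 without Casp8-/- Mlkl-/- replicate 1.

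**Figure D3:**
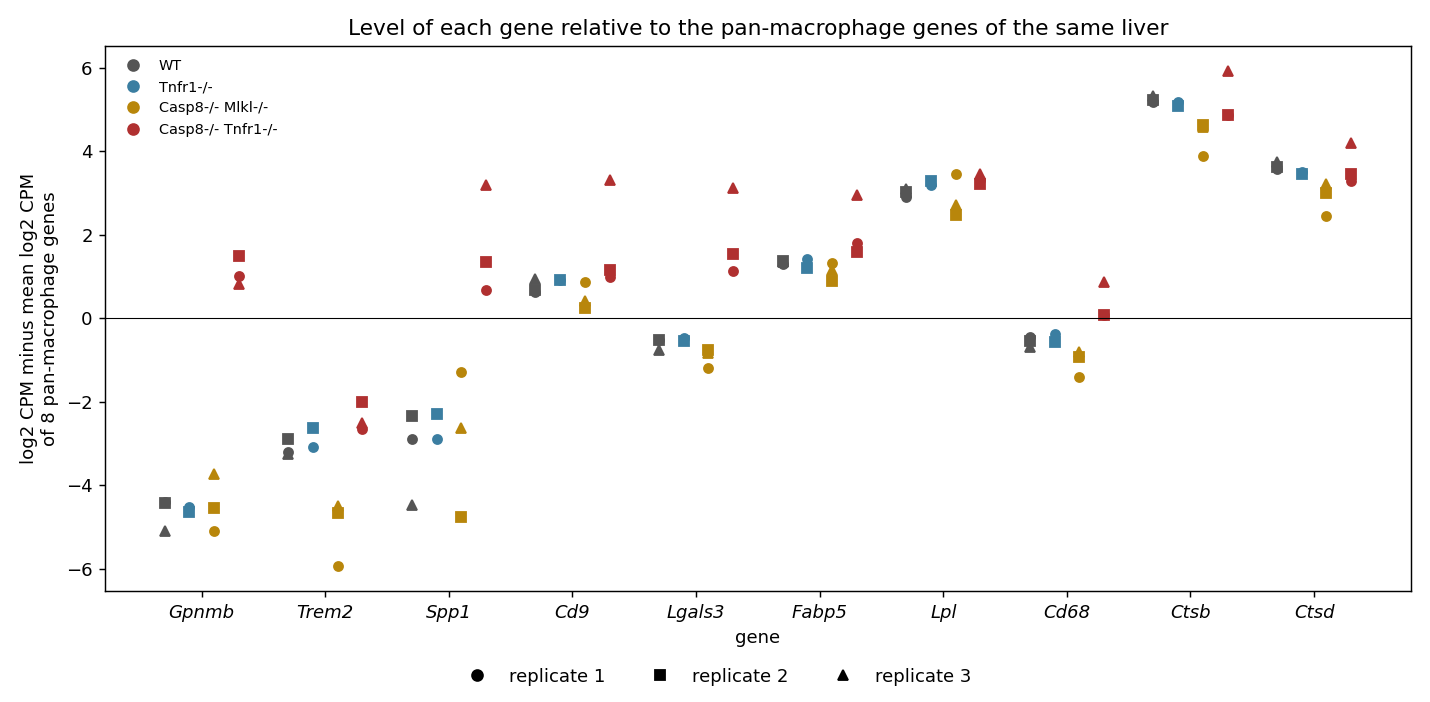
Level of each gene relative to the pan-macrophage genes of the same liver, as log2 CPM minus the mean log2 CPM of 8 such genes, for all 11 livers. Colours give the genotype and symbols the replicate number. For Gpnmb the 3 Casp8-/- Tnfr1-/- livers lie between 0.83 and 1.49 and the controls between -5.10 and -3.74, while for Ctsb and Ctsd the groups overlap.

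The reference itself was not level in all its genes. The mean log2 CPM of the 8 genes was 4.89 to 5.21 in WT, 5.05 and 5.06 in Tnfr1-/-, 6.56, 5.50 and 5.47 in Casp8-/- Mlkl-/-, and 5.28, 5.27 and 4.71 in Casp8-/- Tnfr1-/- livers. Its lowest and highest values were thus in the livers that stood apart. For a gene of unchanged level, both widen the difference on this scale. Adgre1, which encodes the macrophage antigen F4/80, was at 40.2, 38.5 and 13.1 CPM in Casp8-/- Tnfr1-/- livers, below the 46.2 to 170 CPM of the controls, whereas Spi1, which encodes PU.1, was higher than in all controls (log2 fold change against WT 1.52, edgeR adjusted p = 0.00888). The summed level of the 8 pan-macrophage genes was 391, 394 and 305 CPM in Casp8-/- Tnfr1-/- livers and 310 to 1040 CPM in controls, with 1 gene above and 1 below all controls.

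Markers of other myeloid cells differed too, with Kupffer cell genes lower and monocyte and neutrophil genes higher in summed level. The 8 Kupffer cell genes summed to 147, 121 and 80.5 CPM in Casp8-/- Tnfr1-/- livers against 231 to 682 CPM in controls, and Clec4f and Marco were lower than in WT (log2 fold change -4.23 and -1.51, edgeR adjusted p = 0.0436 and 0.0495). Clec4f was at 1.16, 0.550 and 0.114 CPM there, but also at 5.47, 0.203 and 0.726 CPM in Casp8-/- Mlkl-/-, against 10.4 to 13.9 CPM in WT and Tnfr1-/- livers. The 6 monocyte genes summed to 819, 949 and 1152 CPM against 245 to 761 CPM, and 4 of the 6 were higher than in WT. The 10 neutrophil genes summed to 5276, 6519 and 14815 CPM against 1126 to 3430 CPM, and 4 of the 10 were higher than in WT. Over all genes 5.1% were higher than in WT and 0.702% lower. Single genes did not all follow these sums. In Casp8-/- Tnfr1-/- replicate 3 the neutrophil gene Elane was at 14.4 CPM and the monocyte gene Ccr2 at 3.42 CPM. The lowest controls were at 48.7 and 15.1 CPM. Elane and Ccr2 reached 143 and 32.6 CPM in replicate 2. Id3, a Kupffer cell gene, was at 18.4 to 44.5 CPM against 14.8 to 27.8 CPM in controls. The part of monocytes and neutrophils in the levels of the members was not tested.

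**Figure D4:**
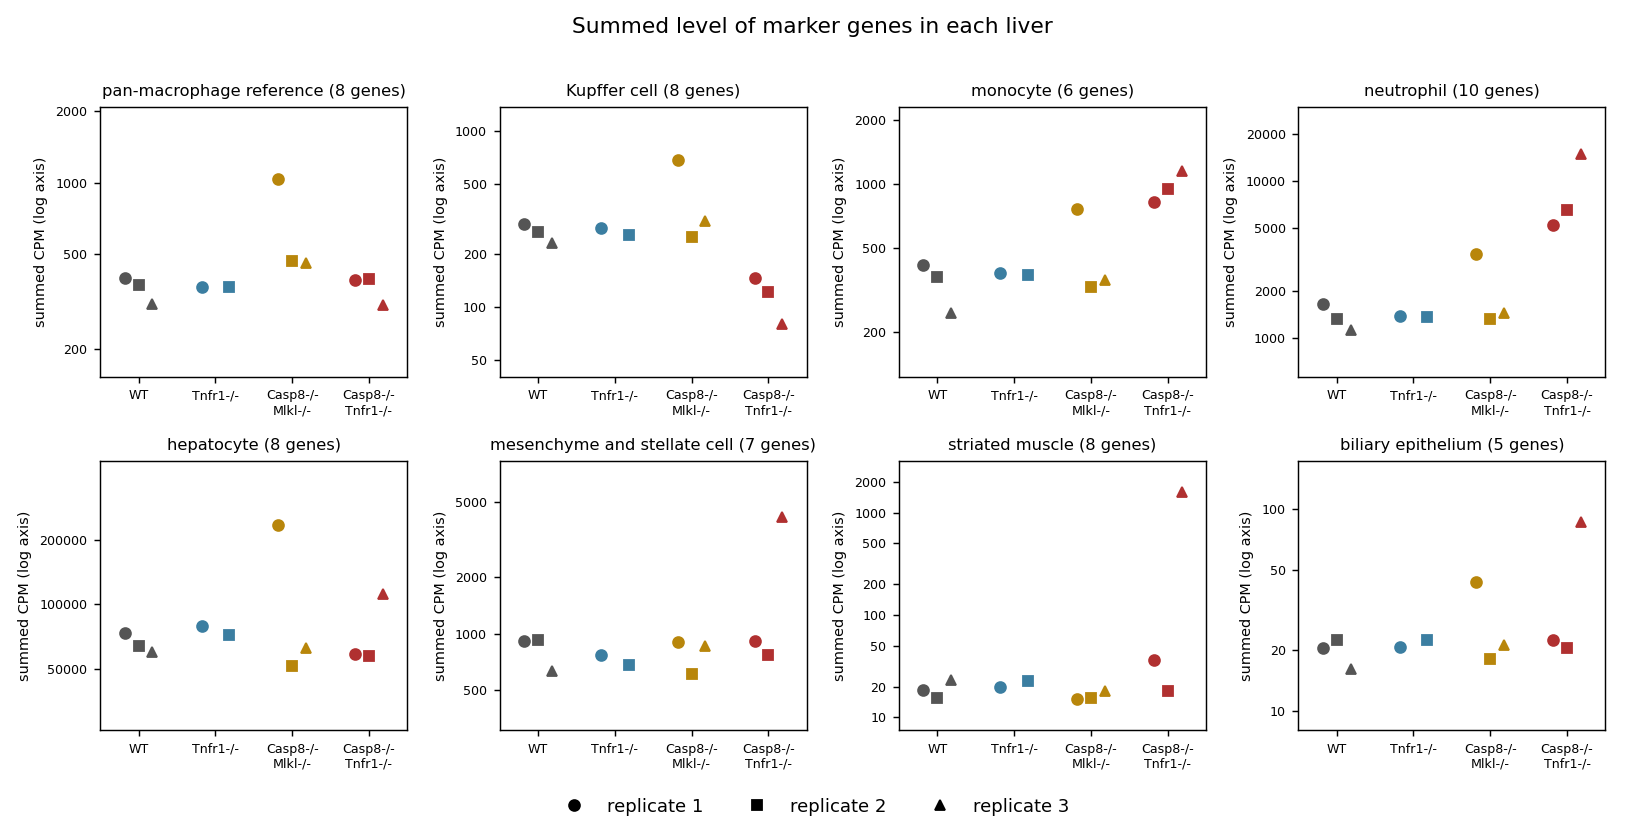
Summed CPM of marker genes of 8 cell types in each of the 11 livers, on log axes, by genotype, with symbols for the replicate number. Kupffer cell sums are lowest and monocyte and neutrophil sums highest in the Casp8-/- Tnfr1-/- livers, and striated muscle stands out in Casp8-/- Tnfr1-/- replicate 3 at 1605 CPM.

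Across the 11 livers, the genes whose log2 CPM followed Gpnmb most closely were Plac8 (Pearson r 0.987), Zbp1 (0.986), Ptpre (0.98), Dhx58 (0.979) and Tmem50b (0.978). Among the members the correlation with Gpnmb was 0.919 for Lgals3, 0.888 for Cd68, 0.869 for Spp1, 0.563 for Trem2, 0.545 for Fabp5, 0.515 for Cd9, 0.201 for Ctsd, 0.136 for Lpl and 0.097 for Ctsb. These values describe how the 11 livers line up, which is largely the split of 3 against 8 that all high values share.

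Of 63 further genes of the pathway in 6 lists, 15 rose in Casp8-/- Tnfr1-/- livers against WT, 8 against Tnfr1-/- and 5 against Casp8-/- Mlkl-/-, and 0, 0 and 1 fell. Over all genes tested 5.1%, 2.05% and 1.54% were higher in these comparisons, and the counts of each list are to be read against these shares. Their median log2 fold change was 0.58, 0.61 and 0.28. Mmp12, Csf1, Ccl3, Msr1 and Plcg2 were higher in all 3 comparisons, and 15 of the 63 lay above all controls, as 7.43% of all genes did, and 3 below (Timd4, Cd5l and Syngr1, named from their values), as 3.32% did. Leaving out 1 liver at a time, 5 of the 15 calls against WT held in every fit (those 5 genes), while 1 of the 8 against Tnfr1-/- did (Mmp12). Against Casp8-/- Mlkl-/-, those of Mmp12, Csf1 and Msr1 held. No list gene was called in Casp8-/- Mlkl-/- or Tnfr1-/- against WT livers. Of the list genes 12 and 0 had an unadjusted edgeR p under 0.05 there, beside 971 and 186 of the 17243 genes tested. The log2 fold change against WT was positive for 55 of the 63 in Casp8-/- Tnfr1-/- livers, and also for 56 in Casp8-/- Mlkl-/- (median 0.34), against 34 in Tnfr1-/-.

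The list of other lipid-associated or disease-associated macrophage genes had 5 of 10 genes higher than in WT. Mmp12, a macrophage elastase, went from 0.115, 0.209 and 0.237 CPM in WT livers, 0.0547 and 0.0380 CPM in Tnfr1-/- and 0.162, 0.0871 and 0.153 CPM in Casp8-/- Mlkl-/- to 18.5, 24.9 and 58.4 CPM in Casp8-/- Tnfr1-/- (edgeR adjusted p = 9.01e-05, 0.00027 and 0.000168). With 1 to 6 reads per control liver against 606 to 1025, the size of its fold is poorly set. Csf1, the macrophage growth factor, was at 28.1 to 32.9 CPM in the controls and at 69.9, 66.8 and 68.8 CPM in Casp8-/- Tnfr1-/- livers (log2 fold change against WT 1.22, adjusted p = 0.000346). Ccl3, a chemokine, was at 0.197 to 1.25 CPM in the controls and at 11.1, 11.3 and 7.97 CPM in Casp8-/- Tnfr1-/- livers (3.57, adjusted p = 0.00544). Cd52 and Clec7a, named after their values were seen, rose against WT by 2.43 (adjusted p = 0.00801) and 1.16 (adjusted p = 0.0419). The call of Clec7a was lost in 9 of 11 fits without 1 liver (adjusted p 0.063 to 0.177) and that of Cd52 without WT replicate 3 (0.0559). Against Tnfr1-/- the calls of Csf1 and Ccl3 were lost when either Tnfr1-/- liver was left out (adjusted p 0.0547 and 0.0955 for Csf1, 0.269 and 0.327 for Ccl3). Against Casp8-/- Mlkl-/-, that of Ccl3 was lost without replicate 2 or 3 of that genotype (0.0803 and 0.0925).

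In the TREM2 signalling and APOE list, 3 of 6 genes were higher than in WT. Plcg2, a phospholipase downstream of TREM2, rose by 1.21 (log2, edgeR adjusted p = 0.00218), the kinase Syk by 0.87 (adjusted p = 0.0157) and Tyrobp by 1.26 (adjusted p = 0.0413). Hcst at 2.02 (adjusted p = 0.141), Inpp5d at 0.35 (0.111) and Apoe at 0.22 (0.793) did not pass. The call of Tyrobp was lost in 7 of 11 fits without 1 liver (adjusted p 0.0516 to 0.164) and that of Syk without any of the 3 WT livers (0.0586 to 0.0826). Plcg2 was also called against Tnfr1-/- (0.87, adjusted p = 0.0325) and Casp8-/- Mlkl-/- (0.76, adjusted p = 0.043), but those calls were lost in 6 and 8 of 11 such fits.

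Of 12 genes of lipid uptake, storage and efflux, 2 were higher than in WT. Msr1, a scavenger receptor, was at 10.1 to 21.5 CPM in the controls and at 63.9, 63.3 and 43.9 CPM in Casp8-/- Tnfr1-/- livers (log2 fold change 2.18, 2.27 and 1.71, edgeR adjusted p = 0.000773, 0.00251 and 0.00569). Its call against Tnfr1-/- was lost without either Tnfr1-/- liver (adjusted p 0.0864 and 0.0869). Pparg, a nuclear receptor for fatty acids, rose by 2.0 on the log2 scale against WT (adjusted p = 0.0102), a call lost without WT replicate 2 or 3 (0.062 and 0.059). The cholesterol exporter Abcg1 was at 0.72 (adjusted p = 0.0709).

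Of 19 other lysosomal genes, 3 were higher than in WT and none lower, and 19 of 19 had a positive log2 fold change against WT, with a median of 0.62. In Casp8-/- Mlkl-/- against WT livers 18 of 19 were positive too, with a median of 0.37. The genes called were the protease Ctsz (0.87, edgeR adjusted p = 0.0192), the hexosaminidase subunit Hexa (0.59, adjusted p = 0.035) and the proton pump subunit Atp6v0d2 (2.03, adjusted p = 0.0419). Each was lost in 3 to 7 of the 11 fits without 1 liver. The median was 0.61 against Tnfr1-/-, with 1 gene higher, and 0.34 against Casp8-/- Mlkl-/-, with 0 genes higher by edgeR. In the latter comparison 5 had an unadjusted edgeR p under 0.05, beside 2644 of the 17243 genes tested. The transcription factors of the MiT/TFE family had 1 of 4 genes higher than in WT, Tfec (0.98, adjusted p = 0.0165), lost without WT replicate 2 or 3 (0.0808 and 0.0898). Mitf at 0.47 (adjusted p = 0.296), Tfe3 at 0.43 (0.0915) and Tfeb at 0.17 (0.597) did not pass.

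Engulfment of dead cells was the list with the smallest median against WT, 0.02, with 1 of 12 genes higher (Elmo1, a regulator of engulfment, 0.84, edgeR adjusted p = 0.0115, lost without WT replicate 2 or 3 at 0.0689 and 0.0703). Mfge8, a bridging protein for dying cells, was at -0.52 (adjusted p = 0.0959). Timd4, a receptor for phosphatidylserine that Kupffer cells carry, was at 13.9 to 17.6 CPM in WT and Tnfr1-/- livers, 62.7, 30.7 and 32.6 CPM in Casp8-/- Mlkl-/- and 9.88, 6.26 and 1.77 CPM in Casp8-/- Tnfr1-/-. It was lower than in Casp8-/- Mlkl-/- livers (log2 fold change -2.80, adjusted p = 0.0283), a call lost in 8 of 11 fits without 1 liver (0.0592 to 0.0865), and at -1.43 against WT (adjusted p = 0.117). Timd4 and Cd5l are also among the Kupffer cell genes, and C1qa, C1qb and C1qc, which the list holds too, are among the pan-macrophage genes.

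**Figure D5:**
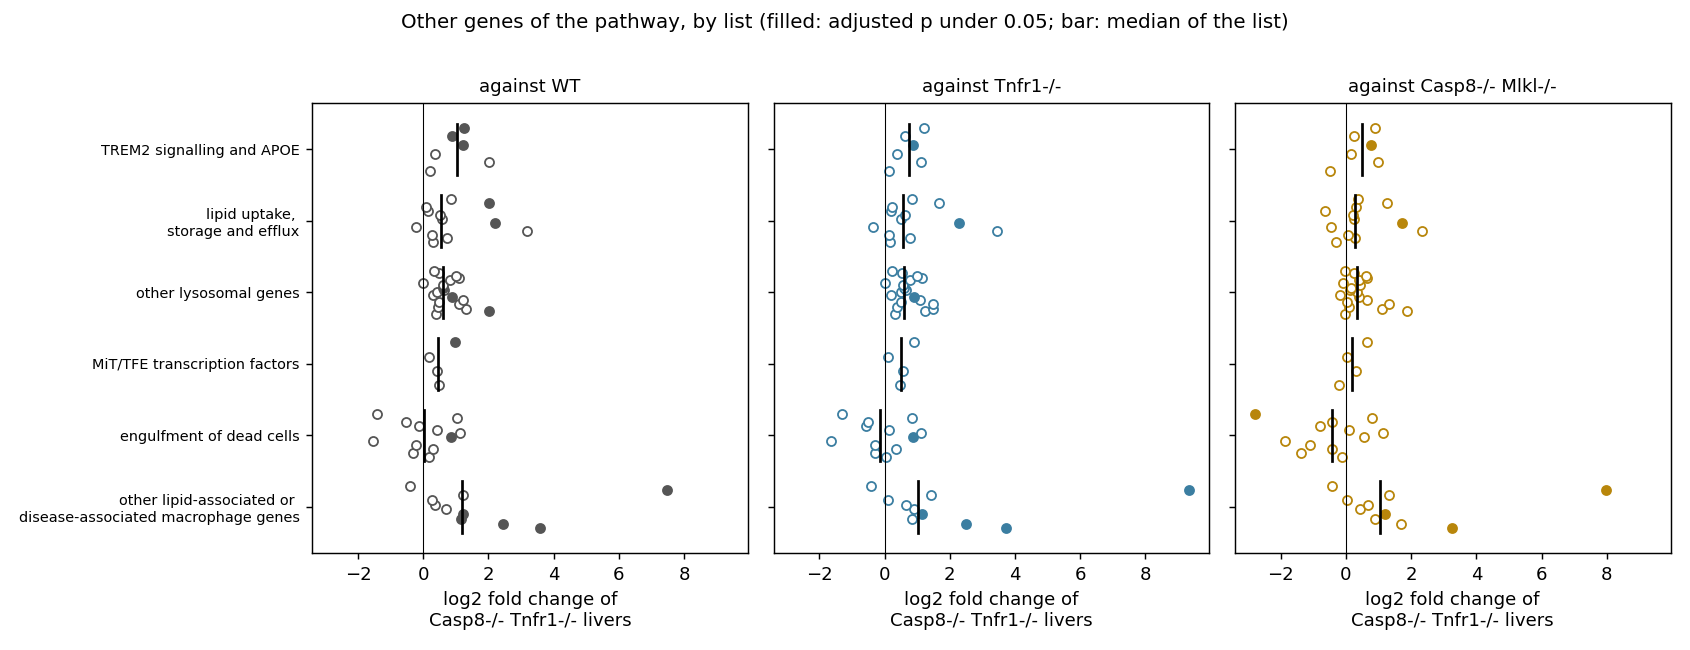
Log2 fold changes of 63 further genes of the pathway in Casp8-/- Tnfr1-/- livers against WT, Tnfr1-/- and Casp8-/- Mlkl-/- livers, by list. Each point is a gene, filled where the edgeR adjusted p is under 0.05, and bars give the median of the list. The point farthest to the right in each panel is Mmp12, which rests on 1 to 6 reads per control liver, and the medians against WT run from 0.02 for engulfment to 1.18 for other lipid-associated or disease-associated macrophage genes.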

How the data were processed

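RNA of 11 fetal livers was measured by single-end sequencing. Per the labels and the methods of the study, the authors aligned reads to GRCm38 (mm10) with GSNAP. The labels name an unstranded library kit (TruSeq RNA v2) and the methods a stranded one, and the counting tool and its use of strand are not given in the sources used here, so reads of genes that overlap on opposite strands may have been mixed. The deposited tables hold raw counts of reads on the exons of each gene, and these counts were used for all results. The authors also deposited the RPKM values and a gene width in bases. The RPKM values were only checked, and the width gave levels per kilobase. Library totals were 23129212 to 35819339 counts, with a median of 25733946. Every pair of the 55 differed by more than sampling noise (chi-square per degree of freedom of at least 6.447).

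The 17243 genes that passed filterByExpr (minimum count 10) were scaled by TMM and fitted with edgeR 4.0.16 (quasi-likelihood test, R 4.3.3) over all 4 genotypes, with genotype as the only factor. P-values were adjusted over all genes by Benjamini-Hochberg with a threshold of 0.05. CPM uses TMM library sizes, and log2 CPM a prior count of 2. The exact permutation test is two-sided, with p as 2 times the smaller tail over 165 splits. Gene positions are from GENCODE, and promoters from RefSeq. Alternatives used limma-voom (limma 3.58.1), with and without quality weights, DESeq2 1.42.0, other filters and scalings, fits of only 2 genotypes, a replicate block and the removal of each liver. Replicate numbers were not taken as pairs in the main fit. The fits were tested on simulated data, where DESeq2 made more false calls than its threshold allows, so its counts may be too high.

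The members and lists were chosen with earlier results of these data known. Named genes are the 10 members, the 3 genes with the smallest p against WT in each pathway list, genes called against the direction of their list, all genes of the TREM2 and MiT/TFE lists, marker genes, Casp8, Mlkl, Tnfrsf1a, and the 5 genes closest to Gpnmb. Cd52, Clec7a, Syngr1 and Xist were added once their values had been seen. Pan-macrophage genes are given as a group, and not all of them are reported here by name.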

Additional observations from a re-analysis of the deposited data

How the results depend on the processing

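Over 21 alternatives for each comparison, Gpnmb kept its direction and its call against all 3 control genotypes, and Lgals3 against WT. The counts of members called higher, 4 against WT, 2 against Tnfr1-/- and 3 against Casp8-/- Mlkl-/-, depended more on the setting. The cause was not tested. With 1 liver left out they ran from 2 to 5, 1 to 4 and 1 to 4, and the counts of other pathway genes called higher, 15, 8 and 5, ran from 5 to 25, 1 to 15 and 3 to 10. The highest counts of pathway genes were each without Casp8-/- Mlkl-/- replicate 1, and the lowest without WT replicate 3, without either Tnfr1-/- liver, and without Casp8-/- Mlkl-/- replicate 2 or 3. Those called lower ran from 0 to 1 against WT and from 0 to 1 against Casp8-/- Mlkl-/-. The DESeq2 Wald test called 4 members against Tnfr1-/-, 25, 18 and 11 pathway genes higher, and 2 lower against WT and 3 lower against Casp8-/- Mlkl-/-. Of all genes it called 10.5%, 6.55% and 4.64% higher and 3.48%, 0.958% and 0.923% lower. On simulated data it made too many false calls. Quality weights in limma-voom gave 8, 7 and 6 members and 38, 36 and 26 pathway genes higher, with 3, 4 and 5 pathway genes lower. Of all genes, 17.0%, 14.6% and 11% were then higher and 13.6%, 10.5% and 4.73% lower. In Casp8-/- Mlkl-/- against WT, quality weights gave 2 members lower, 5 pathway genes higher and 1 lower, where 3.2% of all genes were higher and 2.85% lower. In Tnfr1-/- against WT they gave 1 pathway gene higher, where 0.87% of all genes were. Without a filter on low counts, 5 pathway genes were higher against Tnfr1-/-, where 1.5% of all genes were. Fits of only the 2 genotypes compared gave 1 member against Tnfr1-/- and 1 against Casp8-/- Mlkl-/-, and 8, 2 and 1 pathway genes higher. Of all genes, 2.8%, 0.316% and 0.0612% were then higher in Casp8-/- Tnfr1-/- livers. Against Casp8-/- Mlkl-/- these fits gave 0 pathway genes lower, where 0.00612% of all genes were. In Tnfr1-/- against WT they gave 1 pathway gene higher, where 0.85% of all genes were. Leaving out both livers that stood apart, chosen after seeing the data, gave 8, 8 and 8 members and 44, 35 and 34 pathway genes higher, with 3, 4 and 5 lower. Of all genes, 17.8%, 13.9% and 12.0% were then higher and 13.5%, 9.3% and 6.1% lower. In Casp8-/- Mlkl-/- against WT, leaving out both gave 1 member lower, 5 pathway genes higher and 2 lower, where 3.23% of all genes were higher and 3.18% lower. In Tnfr1-/- against WT it gave 1 pathway gene higher, where 0.348% of all genes were. Relative to the pan-macrophage genes, 7 members had an unadjusted exact permutation p under 0.05. The count was 6 to 8 with 1 liver left out and 8 with the median of these genes as reference. The share of all genes was not computed on this scale.

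Deviations from the genotype means correlated at -0.297 to 0.275 over 15 pairs of livers with the same replicate number. Pairs with different numbers were not compared, and whether a number marks a shared litter or batch was not tested. A replicate block gave 1 member and 4 pathway genes higher against Tnfr1-/-, where 1.06% of all genes were, and Spp1 against WT then had an adjusted p of 0.0806. Lgals3 also missed the threshold against Tnfr1-/- and Casp8-/- Mlkl-/- under it. Ctsd against Casp8-/- Mlkl-/- was at 0.0074 under the block.

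Signs turned only for differences that had not passed the test, and ranges are over fits with 1 liver left out. Ctsd against Casp8-/- Mlkl-/-, at -0.00, was at 0.013 with hemoglobin genes left out of library sizes, 0.0097 with limma-voom, 0.0045 with quality weights, 0.023 with a mean of at least 10 counts, 0.0083 in the fit of 2 genotypes and 0.071 without both livers, and ranged from -0.095 to 0.15. Against WT, Ctsb and Ctsd were at -0.19 and -0.10 with quality weights, -0.024 and -0.012 without a filter, and -0.16 and -0.064 without both livers, and ranged from -0.17 to 0.10 and from -0.072 to 0.097. Ctsb against Tnfr1-/- was at -0.029 with quality weights and -0.019 without both livers, and ranged from -0.034 to 0.24. It ranged from -0.073 to 0.24 against Casp8-/- Mlkl-/- and from -0.019 to 0.51 relative to the pan-macrophage genes. Lpl against Casp8-/- Mlkl-/- was at 0.36 with quality weights and 0.47 without both livers, and ranged from -0.92 to 0.34, the last without Casp8-/- Mlkl-/- replicate 1. Fabp5 there ranged from -0.14 to 0.74 and Cd9 from -0.20 to 1.33, both lowest without Casp8-/- Tnfr1-/- replicate 3 and highest without Casp8-/- Mlkl-/- replicate 1.

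Between control genotypes, Ctsd in Casp8-/- Mlkl-/- against WT was at -0.11 with quality weights and -0.13 without both livers, and ranged from -0.14 to 0.12. Spp1 and Cd9 there were at -0.047 and -0.0092 without both livers, and ranged from -0.00094 to 2.40 and from -0.0091 to 1.02. In Tnfr1-/- against WT, Gpnmb was at 0.041 with limma-voom and ranged from -0.30 to 0.17. Trem2 ranged from -0.018 to 0.45, Spp1 from -0.069 to 0.85, Lgals3 from -0.094 to 0.16, Fabp5 from -0.17 to 0.052 and Cd68 from -0.086 to 0.19.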
